A study of Mus musculus with 59 samples.

Results

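The genes of hepatic fatty acid oxidation and ketone body formation were followed in livers of 4-week-old mice with altered E2F alleles. A list of 36 symbols was taken through the array annotation, keeping probe sets named with exactly 1 symbol and, for each gene, the probe set with the highest mean signal. It gave 35 of the 18193 genes measured in this way, and Acsl1 had no such probe set. The 35 were set by role into 5 genes of fatty acid uptake, activation and storage, 16 of the mitochondrial steps, 10 of the peroxisomal steps, 3 not set to 1 compartment (Crat, Eci2 and Acad11) and 1 of ketone bodies (Bdh1). The mice were wild type (wt, 12 arrays), carried an E2f3a knock-out (3aKO, 10 arrays), an E2F1 knock-in (1KI, 10 arrays) or an E2F3b knock-in (3bKI, 5 arrays), and all had a mixed background of FVB/NT, 129S1/Svlmj and C57BL/6NT. The sources used here give neither the locus of each knock-in nor the cells that carry it. The 1KI arrays were normalized with wt and 3aKO (normalization 1), and the 3bKI arrays with the same wt and 3aKO arrays processed anew (normalization 2), so 1KI and 3bKI were each compared with wt and with 3aKO but not with each other. The question was how each altered allele bears on expression in the young liver. Nothing in the labels ties each array to an animal of its own. The spread behind every p-value is therefore that between samples and may be technical.

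Fatty acids reach the hepatocyte through carriers such as CD36, are bound by FABP1 and are activated to acyl-CoA. Long chains enter mitochondria through the carnitine shuttle, and there fatty acids are shortened by a cycle of dehydrogenation, hydration, a further dehydrogenation and thiolysis, whose electrons pass to the respiratory chain through the electron transfer flavoprotein. Very long and branched chains are shortened first in peroxisomes, and the acetyl-CoA made in liver mitochondria feeds ketone bodies. Many of these genes are known targets of PPAR alpha, a nuclear receptor that pairs with RXR on direct repeats of AGGTCA, and this programme is strong in the suckling and fasting liver.

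To show what the genes carry at their starts, RefSeq promoters of GRCm38.p6 (250 bases before to 50 after the start, which is base 251 of the window) were matched to 30 of the 35 genes by symbol. They were searched on both strands for a direct repeat of AGGTCA with 1 base between the copies, allowing 2 mismatches in its 12 fixed bases. It was found in 5 of the 30 genes, Cd36, Etfa, Fabp1, Plin2 and Slc25a20. These held 15.62% of the genes' 32 promoters, beside 3.86% of all 32851 promoters of that length, and none of the 9 peroxisomal promoters had a match. With at most 1 mismatch it was found in Fabp1 alone (0.554% of all promoters). Cd36 and Plin2 had positive changes in 3bKI that did not pass, and their promoters are not shown. The promoters of the 3 matched genes that fell in 3bKI follow, with the matched 13 bases in capitals.
Fabp1 (liver fatty acid-binding protein), chr6:71199629-71199928, plus strand: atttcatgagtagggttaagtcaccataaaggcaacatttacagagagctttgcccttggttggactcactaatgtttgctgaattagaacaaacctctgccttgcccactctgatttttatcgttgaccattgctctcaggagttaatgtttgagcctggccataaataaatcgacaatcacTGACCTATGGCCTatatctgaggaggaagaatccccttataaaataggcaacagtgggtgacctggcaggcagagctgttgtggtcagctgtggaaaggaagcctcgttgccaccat
Slc25a20 (carnitine-acylcarnitine translocase), chr9:108661886-108662185, plus strand: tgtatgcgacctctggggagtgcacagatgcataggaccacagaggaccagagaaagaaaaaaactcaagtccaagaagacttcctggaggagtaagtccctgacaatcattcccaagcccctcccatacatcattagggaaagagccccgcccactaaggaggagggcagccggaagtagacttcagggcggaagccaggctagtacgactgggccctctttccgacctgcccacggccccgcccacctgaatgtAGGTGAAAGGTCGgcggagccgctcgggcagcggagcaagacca
Etfa (alpha subunit of the electron transfer flavoprotein), chr9:55512194-55512493, minus strand: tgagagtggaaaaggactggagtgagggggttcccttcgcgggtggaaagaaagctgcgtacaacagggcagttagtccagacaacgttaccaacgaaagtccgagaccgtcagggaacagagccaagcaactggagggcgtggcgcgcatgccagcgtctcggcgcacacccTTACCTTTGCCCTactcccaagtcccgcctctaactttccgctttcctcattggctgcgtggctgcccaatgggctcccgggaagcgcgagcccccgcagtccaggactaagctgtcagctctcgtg
The Fabp1 match lies at bases 184 to 196 of its window and has 1 mismatch, and those of Slc25a20 (bases 257 to 269) and Etfa (bases 174 to 186) have 2. The same search for 4 E2F words, TTTCCCGC, TTTCGCGC, TTTGCCGC and TTTGGCGC, found none in the 32 promoters, beside 2.265% of all promoters. These are descriptions of letters in a window, and the arrays measure no binding.

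All 35 genes lay above the median gene signal of 6.91 on the log2 scale (6.87 in normalization 2). Control signals differed between genotypes. The hybridization spike-ins averaged 11.3 ± 0.24 (log2, SD, n = 10) in 1KI and 11.6 ± 0.29 (n = 5) in 3bKI, beside 10.2 ± 0.12 (n = 10) in 3aKO. Of the wt arrays, replicates 1 and 2 were as high as the knock-ins, and the remaining 10 were as low as 3aKO. Poly-A controls stood at 13.8 in 3bKI and 9.04 in the wt arrays normalized with them. The 3′ minus 5′ log2 difference of the housekeeping control probe sets, which bears on RNA integrity, ran from 0.275 to 0.36 in 3bKI and from 0.475 to 0.65 in wt, and 1KI replicate 6 stood apart at 1.75. E2f3 had a log2 change of -0.25 ± 0.07 (SE, limma, adjusted p = 0.13) in 3aKO against wt, and E2f1 one of -0.25 ± 0.11 (adjusted p = 0.086) in 1KI against wt, so neither passed. In 1KI against 3aKO, E2f1 fell by 0.29 ± 0.11 (adjusted p = 0.049), so it was lower, not higher, in the arrays labelled as its knock-in, and E2f3 rose by 0.22 ± 0.07 (adjusted p = 0.022). In 3bKI against wt, E2f3 fell by 0.24 ± 0.09 (adjusted p = 0.049). Whether these probe sets lie in the altered sequence is not known here, so they check the labels only in part, and 1KI, 3bKI and 3aKO stand for the arrays labelled so throughout. The 9 hepatocyte markers measured, Alb and Ttr among them, had a mean level between 13.2 and 13.6 in every array.

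In livers without E2f3a the fatty acid oxidation genes stayed near wild type. None of the 35 passed the limma test (adjusted p under 0.05), 4 had an unadjusted p under 0.05, and over all genes 0.110% passed as higher and 0.0660% as lower. The median change of the 35 was -0.04, beside -0.01 over all genes. The largest change was that of Cd36, the plasma membrane fatty acid translocase. Its log2 level had a lowest value of 7.70, a median of 8.04 and a highest of 8.42 in wt, and 8.25, 8.52 and 9.03 in 3aKO. The groups overlapped, but 6 of 10 3aKO arrays lay above every wt array. The change was 0.52 ± 0.14 (SE, n = 10 and 12), with an adjusted p of 0.13. The same arrays as processed in normalization 2 gave 0.51 ± 0.11 and an adjusted p of 0.035, and Cd36 also passed in 3 other fits named in the closing section.

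Acads, the short-chain acyl-CoA dehydrogenase, had the second largest change. Its lowest, median and highest log2 levels were 10.66, 10.95 and 11.24 in wt and 10.67, 10.77 and 10.92 in 3aKO. Every 3aKO array lay below the wt mean and none below the lowest wt array, and the change of -0.18 ± 0.07 did not pass (adjusted p = 0.32). Crat, a carnitine acetyltransferase (-0.15 ± 0.06, adjusted p = 0.33), and Decr1, the mitochondrial 2,4-dienoyl-CoA reductase (-0.15 ± 0.07, adjusted p = 0.42), were the other 2 with an unadjusted p under 0.05. The medians were -0.03 for the 16 mitochondrial and -0.04 for the 10 peroxisomal genes.

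**Figure D1:**
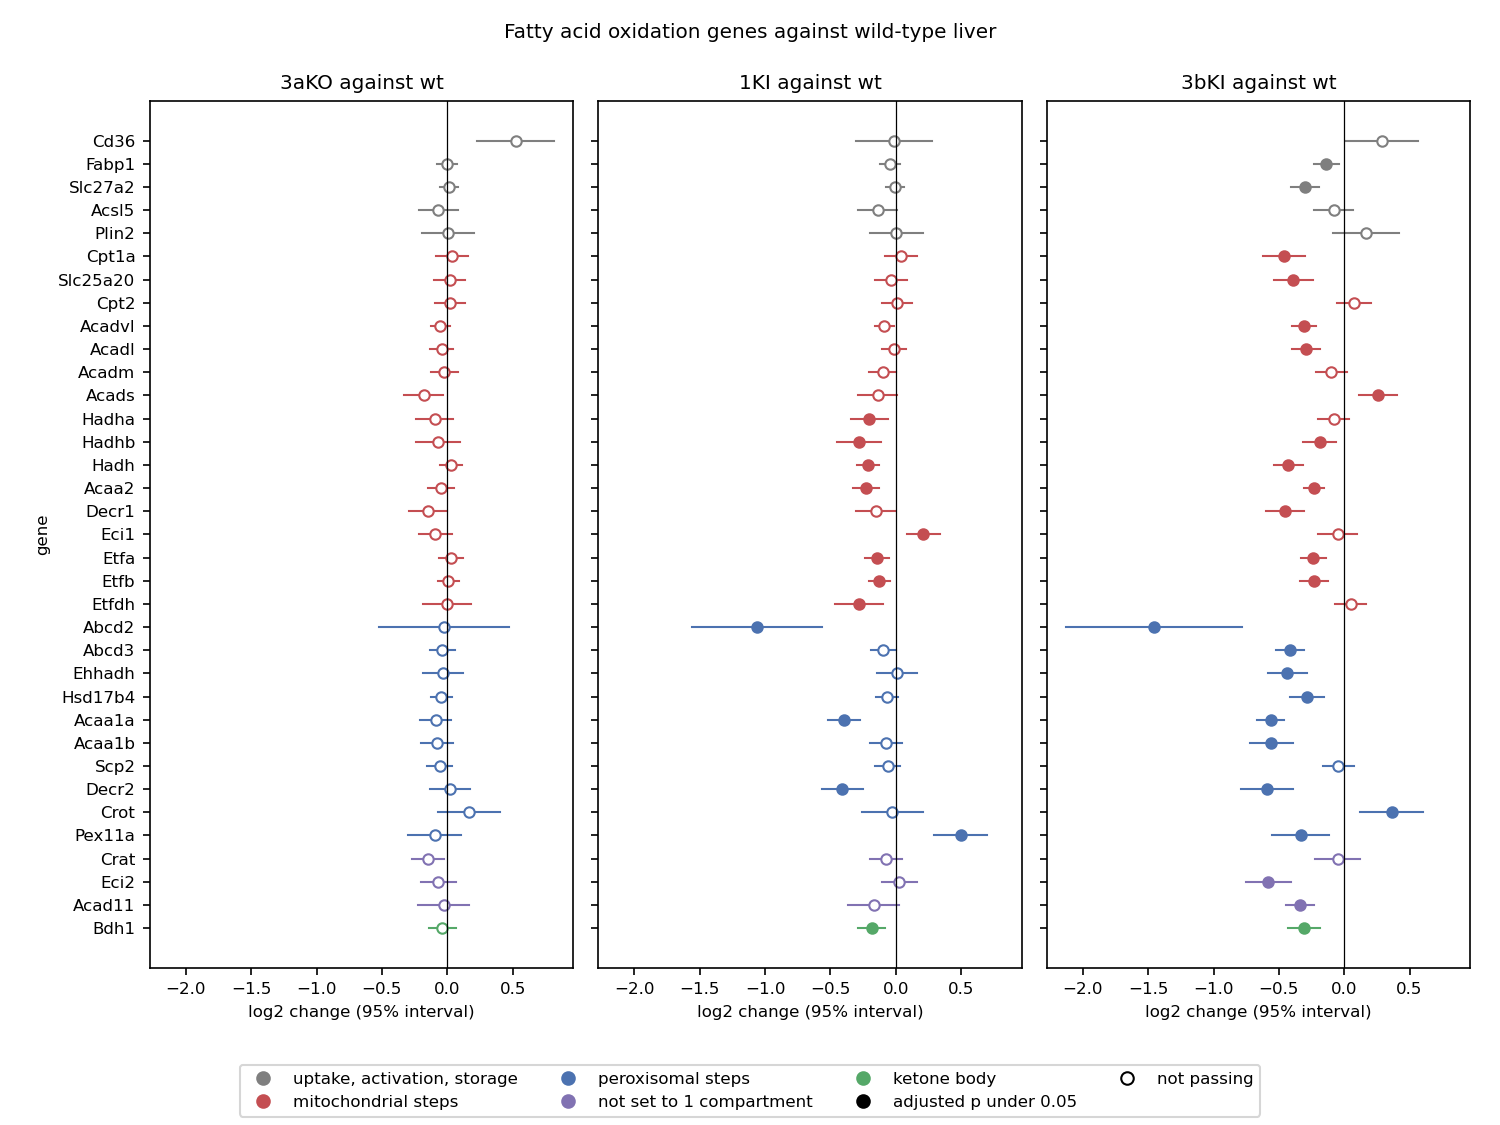
Log2 change (x axis, with 95% interval) of each of the 35 genes (y axis) against wt in 3aKO, 1KI and 3bKI, coloured by role, with filled points for an adjusted p under 0.05. No point is filled in 3aKO, 13 are filled in 1KI and 25 in 3bKI, of which 23 lie left of 0.

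In 1KI livers a part of the mitochondrial cycle and 3 peroxisomal genes were lower than in wt, while the carnitine shuttle and the uptake genes did not pass. Of the 35 genes 2 rose and 11 fell, or 5.71% and 31.4%, beside 10.2% and 17.5% of all genes. Among the 9096 genes above the median signal, 15.8% rose and 22.6% fell. The median change was -0.09, beside -0.05 over all genes. Only Acaa1a of these 13 calls passed with a block for the hybridization control level. In bulk liver RNA, fewer cells of a type and less RNA per cell cannot be told apart. The mean of the 9 hepatocyte markers ran from 13.41 to 13.59 in 1KI and from 13.27 to 13.41 in wt. Their median change was 0.02 and their largest 1.25, with 2 called higher and 0 lower. The part of cell number was not tested.

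The 7 mitochondrial genes that fell act after the first dehydrogenation or in the transfer of electrons, and none of the 7 passed with the control level as a block. Hadha and Hadhb, the subunits of the trifunctional protein, fell by 0.20 and 0.28 on the log2 scale (adjusted p = 0.028 and 0.011, limma). Hadh, the short-chain 3-hydroxyacyl-CoA dehydrogenase, ran from 13.66 to 13.80 (median 13.74) in 1KI and from 13.72 to 14.08 (median 13.97) in wt. All 10 arrays lay below the wt mean and 4 below every wt array, and the change was -0.21 ± 0.04 (adjusted p = 1.5e-04). The thiolase gene Acaa2 fell by 0.23 ± 0.05 (adjusted p = 5.1e-04).

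Etfa, Etfb and Etfdh encode the electron transfer flavoprotein and its dehydrogenase, and fell by 0.14, 0.13 and 0.28 on the log2 scale (adjusted p = 0.015, 0.017 and 0.019, limma). Replicate 6 was the lowest 1KI array for 15 of the 35 genes. Without it the changes of Hadha, Hadhb, Etfa and Etfdh became -0.13, -0.19, -0.10 and -0.17 and still passed, and the counts of 2 and 11 were unchanged. Eci1, the mitochondrial enoyl-CoA isomerase, rose by 0.21 ± 0.06 (adjusted p = 0.012), with 6 of 10 arrays above every wt array. Cpt1a, which sets the rate of entry into mitochondria, had a change of 0.04 ± 0.06, and Slc25a20 and Cpt2 had changes of -0.04 and 0.01. Of the acyl-CoA dehydrogenases, Acadvl, Acadm, Acads and Acadl had changes of -0.09, -0.10, -0.14 and -0.01, none of which passed.

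The peroxisomal genes of 1KI moved in opposite directions. Abcd2, a transporter of very long-chain acyl-CoA into peroxisomes, had a lowest, median and highest level of 8.65, 9.24 and 10.33 in wt and of 6.21, 8.39 and 9.03 in 1KI. Only the higher 1KI arrays reached the wt range, and 8 of 10 lay below every wt array. The change was -1.06 ± 0.24 (adjusted p = 0.0013), so that the level fell by 52.1%, and -0.84 without replicate 6.

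Acaa1a, a peroxisomal thiolase gene, was the only one of the 35 whose 1KI arrays all lay below every wt array, as did 0.709% of all genes. It ran from 8.23 to 8.91 (median 8.66) in 1KI and from 8.92 to 9.20 (median 9.04) in wt, a change of -0.40 ± 0.06 (adjusted p = 5.8e-06). Acaa1a is represented only by probe sets of the _x_at kind, which can bind related transcripts, and its near-identical copy Acaa1b had a change of -0.08 ± 0.06 at its own probe set, so the split between the copies is uncertain. The values of Hadh and Crat also come from _x_at probe sets. Without such probe sets Hadh still passed against wt in both knock-ins, but not in 1KI against 3aKO. Decr2, the peroxisomal dienoyl-CoA reductase, ran from 11.44 to 11.90 (median 11.70) in 1KI and from 11.89 to 12.34 (median 12.11) in wt. Of 10 arrays 9 lay below every wt array, and the change was -0.41 ± 0.08 (adjusted p = 1.2e-04).

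Pex11a, which promotes peroxisome division, went the other way. Its lowest, median and highest levels were 10.31, 10.62 and 11.20 in wt and 10.43, 11.21 and 11.44 in 1KI. The groups overlapped in range, but 5 of 10 1KI arrays lay above every wt array, and the rise was 0.50 ± 0.10 (adjusted p = 3.2e-04), or 41.1%. Ehhadh, Hsd17b4, Scp2, Abcd3 and Crot had changes between -0.10 and 0.01 that did not pass. Bdh1, the mitochondrial 3-hydroxybutyrate dehydrogenase that makes the main circulating ketone body, fell by 0.19 ± 0.05 (adjusted p = 0.0065), with 10 of 10 arrays below the wt mean. Cd36, Fabp1, Slc27a2, Acsl5 and Plin2 had changes between -0.14 and 0.00, none of which passed.

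Against 3aKO, 2 of the 35 genes rose in 1KI and 10 fell, or 5.71% and 28.6%, beside 11.9% and 19.0% of all genes. Among the genes above the median signal 16.8% rose and 27.2% fell, so the share that fell was near that of bright genes. These 3aKO arrays and the wt arrays above are set against the same 1KI arrays, so the comparisons are not independent. Eci1 rose by 0.30 ± 0.07 and Pex11a by 0.59 ± 0.10 (adjusted p = 5.7e-04 and 4.5e-05, limma), with 9 of 10 Pex11a arrays above every 3aKO array. Hadh, Acaa2, Etfa, Etfb, Etfdh, Abcd2, Acaa1a, Decr2 and Bdh1 fell by between 0.13 and 1.04 on the log2 scale. Bdh1 kept its call in 10 of 20 fits with 1 array left out. Neither Bdh1 nor Etfdh passed with the compared groups alone, and Etfdh did not pass with its probe sets averaged. Cd36 was the further call. Its 1KI levels ran from 7.13 to 8.96 (median 8.03) and its 3aKO levels from 8.25 to 9.03 (median 8.52), a change of -0.54 ± 0.15 (adjusted p = 0.0065). The 1KI arrays spanned the widest range here, and 7 of 10 lay below every 3aKO array.

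In 3bKI livers most of the list was lower than in wt. Of the 35 genes 2 rose and 23 fell, or 5.71% and 65.7%, beside 13.4% and 15.9% of all genes and 19.0% and 27.1% of the genes above the median signal. The median change was -0.28, beside 0.00 over all genes. In 14 of the 35 every 3bKI array lay below every wt array, as in 4.47% of all genes, and in none did every array lie above. With a block for the hybridization control level 15 of these 25 calls passed, while 8.70% of all genes did. With RNA integrity as a covariate 9 passed (3.33% of all genes). Within the control level, with 2 wt arrays, 0 passed (0.731%).

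Transcripts of 2 of the 3 genes of the carnitine shuttle were lower. Cpt1a, the outer-membrane carnitine palmitoyltransferase, had log2 levels of 11.95, 12.32, 11.72, 12.22 and 12.02 in the 5 3bKI arrays, and a lowest, median and highest of 12.32, 12.50 and 12.72 in wt. Only the highest 3bKI array reached the lowest wt value. The change was -0.46 ± 0.08 (adjusted p = 4.5e-05, limma), so that the level fell by 27.3%. It did not pass with the control level as a block (-0.31, adjusted p = 0.11) or with RNA integrity as a covariate (-0.33, adjusted p = 0.26). Slc25a20 had 11.19, 10.92, 10.91, 11.36 and 11.25, beside 11.29 to 11.68 in wt, and fell by 0.39 ± 0.07 (adjusted p = 1.3e-04). Cpt2, the inner-membrane transferase, had a change of 0.08 ± 0.06 that did not pass.

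The acyl-CoA dehydrogenases take over from each other as the chain shortens. Acadvl and Acadl, for very long and long chains, fell by 0.31 ± 0.05 and 0.29 ± 0.05, and their 5 arrays lay below every wt array. Acadl did not pass when its probe sets were averaged. Acadm, for medium chains, had a change of -0.10 ± 0.06 that did not pass. Acads, for short chains, had levels of 11.29, 11.15, 11.16, 11.28 and 11.09, beside a lowest, median and highest of 10.64, 10.95 and 11.19 in wt. It was above the wt mean in 5 of 5 arrays and rose by 0.26 ± 0.07 (adjusted p = 0.0059, limma). Acads did not pass with the control level as a block (0.11, adjusted p = 0.60) or with RNA integrity as a covariate (0.28, adjusted p = 0.31). Differences between these 4 genes were not tested.

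In the rest of the cycle Hadh was lower in every array. Its levels of 13.65, 13.44, 13.54, 13.56 and 13.47 all lay below the lowest wt value of 13.73, and the change was -0.43 ± 0.06 (adjusted p = 8.6e-07), so that the level fell by 25.6%. The Hadh change was -0.23 with the control level as a block (limma, adjusted p = 0.045) and did not pass with RNA integrity as a covariate. Decr1 fell by 0.45 ± 0.07 and Acaa2 by 0.23 ± 0.04, again with no overlap with wt. Hadhb fell by 0.19 ± 0.06 (adjusted p = 0.023, limma), while Hadha, its partner in the trifunctional protein, had a change of -0.08 ± 0.06 that did not pass. Etfa and Etfb fell by 0.24 ± 0.05 and 0.23 ± 0.05, while Etfdh and Eci1 had changes of 0.05 and -0.05. In all, 10 mitochondrial genes fell, 1 rose and 5 did not pass, with a median change of -0.23.

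The peroxisomal genes fell further, with 8 lower, 1 higher and 1 not passing among 10 and a median change of -0.42. Acaa1a had levels of 8.53, 8.34, 8.35, 8.41 and 8.34, all below the lowest wt value of 8.83, and fell by 0.56 ± 0.05 (adjusted p = 1.7e-09). Acaa1b had 13.41, 13.77, 13.39, 13.86 and 13.90, all below the lowest wt value of 13.92, and fell by 0.56 ± 0.08 (adjusted p = 4.1e-06). In linear terms Acaa1a fell by 32.3% and Acaa1b fell by 32.1%, with the same reserve on their split. Decr2 had 11.61, 11.46, 11.09, 11.73 and 11.46, beside a lowest wt value of 11.83, and fell by 0.59 ± 0.10 (adjusted p = 3.0e-05).

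The multifunctional enzymes Ehhadh and Hsd17b4, which carry out hydration and dehydrogenation in peroxisomes, fell by 0.43 ± 0.07 and 0.28 ± 0.06. Abcd3, an importer of acyl-CoA, fell by 0.41 ± 0.05 with no overlap with wt. Scp2, which encodes the sterol carrier protein and its thiolase form, had a change of -0.04 ± 0.06 that did not pass. Crot, the carnitine octanoyltransferase that readies shortened chains for export, had levels of 13.06, 12.52, 12.90, 12.74 and 12.92, beside 12.11 to 12.73 in wt. It rose by 0.36 ± 0.12 (adjusted p = 0.019, limma), with 4 of 5 arrays above every wt array. Pex11a had 10.17, 10.26, 10.02, 10.32 and 10.49, beside a lowest, median and highest of 10.26, 10.58 and 11.16 in wt, and fell by 0.33 ± 0.11 (adjusted p = 0.018, limma).

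Of the genes not set to 1 compartment, Eci2, an enoyl-CoA isomerase, had levels of 11.35, 11.45, 10.90, 11.43 and 11.08, all below the lowest wt value of 11.56. It fell by 0.58 ± 0.08 on the log2 scale (adjusted p = 4.4e-06), so that the level fell by 33.2%. Acad11, an acyl-CoA dehydrogenase family member, fell by 0.34 ± 0.05, and Crat had a change of -0.05 ± 0.08. Bdh1 fell by 0.31 ± 0.06 (adjusted p = 2.0e-04), with its 5 arrays between 12.51 and 12.69 and the lowest wt array at 12.74. Among the uptake genes, Slc27a2, a very long-chain acyl-CoA synthetase, fell by 0.30 ± 0.05 without overlap, and Fabp1 by 0.14 ± 0.05 (adjusted p = 0.023, limma). Cd36 (0.29 ± 0.13), the acyl-CoA synthetase gene Acsl5 (-0.08 ± 0.07) and the lipid droplet coat gene Plin2 (0.16 ± 0.12) did not pass.

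**Figure D2:**
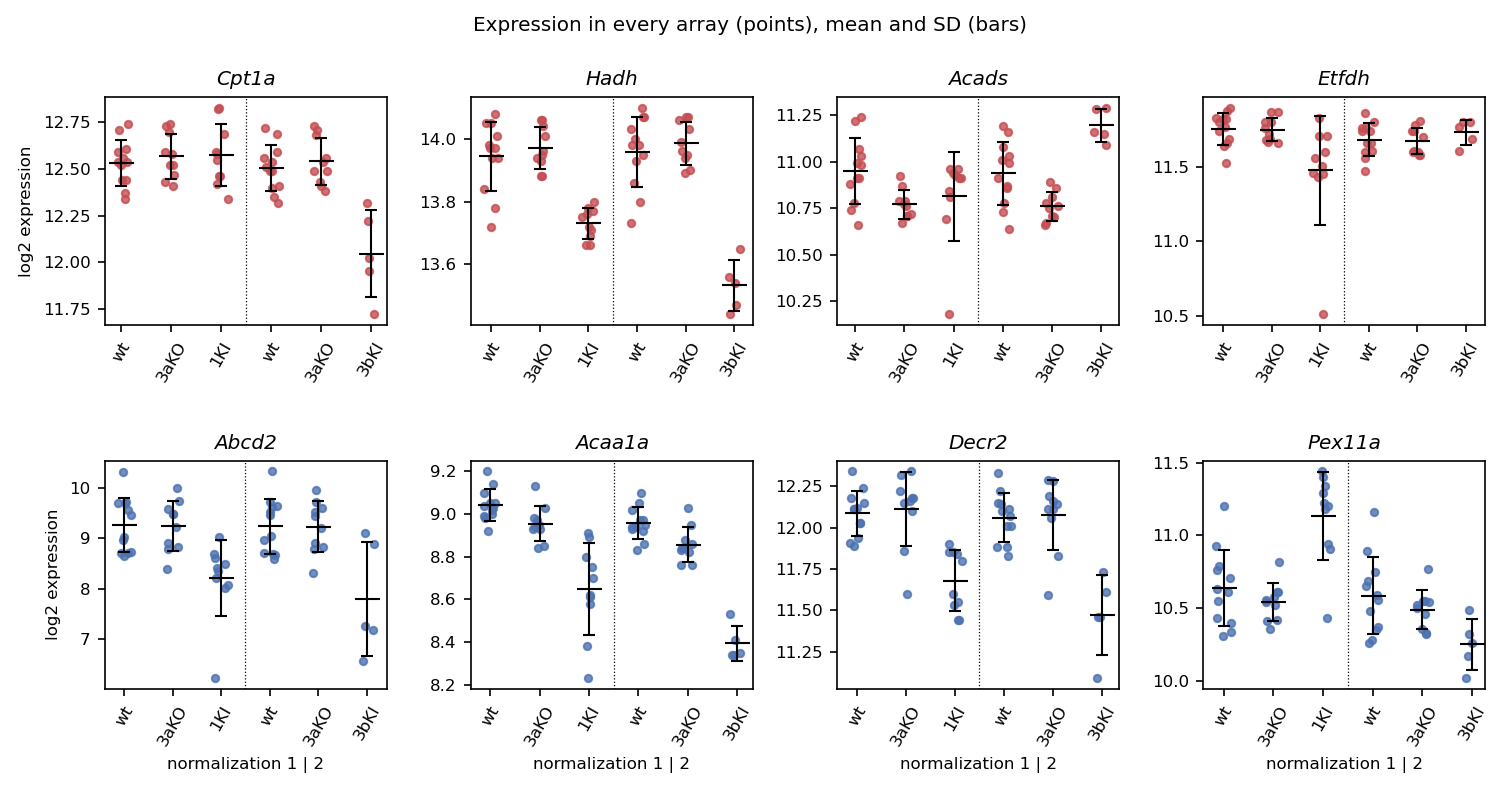
Log2 expression (y axis) of 8 genes in every array of each genotype (x axis), in normalization 1 left of the dotted line and normalization 2 right of it, with mean and SD. The upper row holds mitochondrial and the lower row peroxisomal genes, and Hadh and Acaa1a of 3bKI lie below every wt array while Acads of 3bKI lies above the wt mean.

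Abcd2 was the most variable gene of the list in every group, with an SD from 0.50 in 3aKO to 1.14 in 3bKI, beside a median SD over the 35 genes between 0.10 and 0.18. Its 3bKI levels were 9.10, 7.25, 8.90, 7.17 and 6.55, beside a lowest, median and highest of 8.59, 9.26 and 10.34 in wt, so 2 of the 5 arrays lay within the wt range and 3 far below. The change was -1.46 ± 0.33 (adjusted p = 0.0010, limma). Arrays of each group were also set apart by Xist signal or Y-linked signal. The 3 low arrays were those with Y-linked signal and the 2 others those with Xist signal. In wt, Abcd2 averaged 9.74 (from 9.47 to 10.34) in the 5 arrays with Xist signal and 8.90 (from 8.59 to 9.62) in the 7 with Y-linked signal. Fitted beside genotype over all arrays of normalization 2, Abcd2 was higher with Xist signal by 1.05 ± 0.14 (limma, adjusted p = 6.1e-06), and in normalization 1 by 0.67 ± 0.17 (adjusted p = 0.012).

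Set within each kind of array, the mean Abcd2 of 3bKI was 9.00 against 9.74 in wt with Xist signal, and 6.99 against 8.90 with Y-linked signal. The difference between these changes was 1.17 ± 0.32 and did not pass over all genes (limma, adjusted p = 0.076). In 1KI the same difference was -0.50 ± 0.41 (adjusted p = 0.92). With Xist against Y-linked signal, 2 of the 35 genes were higher and 1 lower in each normalization, beside 3.30% and 1.86% of all genes in normalization 1 and 3.60% and 2.13% in normalization 2. Hadh was the other higher gene in both, by 0.10 ± 0.03 and 0.13 ± 0.03, while the lower gene was Bdh1 in normalization 1 (-0.15 ± 0.03) and Scp2 in normalization 2 (-0.16 ± 0.03). A sex index as a covariate kept all 25 calls of 3bKI against wt and all 13 of 1KI against wt.

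Averaged over genes in each array as differences from the wt mean, the mitochondrial steps of 3bKI stood between -0.27 and -0.11 and the peroxisomal steps between -0.49 and -0.33. In wt the same means ran from -0.07 to 0.11 and from -0.10 to 0.18, so neither group of genes overlapped with wt. The peroxisomal minus the mitochondrial mean was below 0 in 5 of 5 3bKI arrays (-0.24 ± 0.06, SD), from -0.30 to -0.16, and all lay below the lowest wt array (-0.07). Abcd2 carried much of this. Without it the difference was -0.13 ± 0.10, below 0 in 4 of 5 arrays. In 1KI the mitochondrial mean was -0.11 ± 0.13 and the peroxisomal mean -0.17 ± 0.14 (SD, n = 10), and the difference of -0.06 ± 0.03 turned to 0.04 ± 0.07 without Abcd2. These sets are described by their means with no test of their own.

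**Figure D3:**
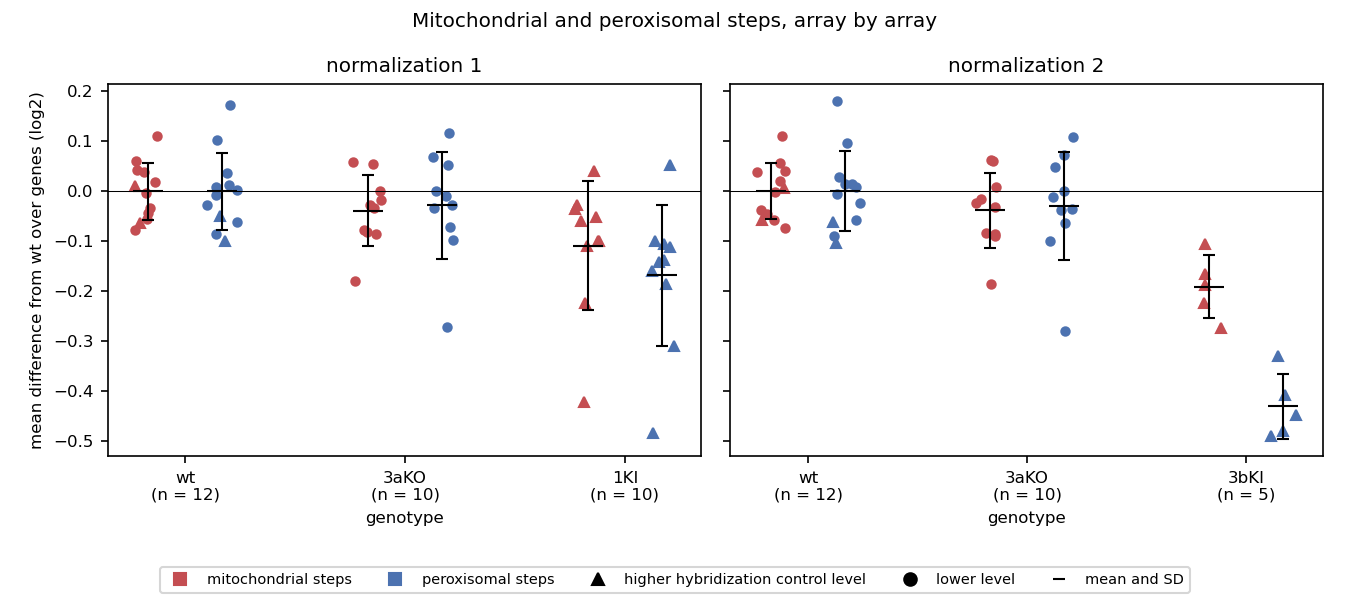
Mean difference from wt (log2, y axis) over the 16 mitochondrial and the 10 peroxisomal genes in each array, by genotype (x axis) and normalization, with triangles for arrays at the higher hybridization control level and bars for mean and SD. Both sets of 3bKI lie below all wt arrays, with the peroxisomal means from -0.49 to -0.33.

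Against 3aKO, 1 of the 35 genes rose in 3bKI and 21 fell, or 2.86% and 60%, beside 16.5% and 17.7% of all genes. Among the genes above the median signal 20.4% rose and 30.5% fell. The median change of the 35 was -0.24. The same 3bKI arrays enter this comparison. Acads was the gene that rose, by 0.44 ± 0.07 (adjusted p = 2.3e-05), with all 5 arrays above every 3aKO array. Cpt1a fell by 0.50 ± 0.08, Slc25a20 by 0.41 ± 0.07, Hadh by 0.45 ± 0.06, Eci2 by 0.52 ± 0.09 and Decr2 by 0.61 ± 0.10. Hadhb (-0.12 ± 0.06), Pex11a (-0.24 ± 0.11) and Crot (0.21 ± 0.12), which had passed against wt, did not pass here.

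The knock-in arrays and wt replicates 1 and 2 share the higher hybridization control level, so part of each contrast with wt and all of each contrast with 3aKO runs between the levels. These 2 wt arrays do not share the other control signals of 3bKI. Their poly-A controls stood at 9.695 and 9.57, beside 13.77 to 13.85 in 3bKI. Their 3′ minus 5′ differences were 0.555 and 0.475, beside 0.275 to 0.36. No wt or 3aKO array lay in either 3bKI range, so these signals and the 3bKI genotype cannot be told apart in these arrays. Levels of the 2 wt arrays are given for single genes. Hadh stood at 13.80 and 13.73 there in normalization 2, Decr2 at 11.88 and 11.83 and Abcd2 at 8.67 and 8.59. For each of these genes replicate 2 was the lowest wt array, whereas Acaa1b stood at 14.32 and 14.21 and Ehhadh at 12.31 and 12.37, near the wt mean. Both wt arrays also have Y-linked signal, and Abcd2 and Hadh were higher with Xist signal, so control level and this signal are mixed in their levels. The part of each was not tested. With the level as a block, each knock-in change against wt rests on wt replicates 1 and 2, since every knock-in array has the higher level. In that fit 15 of the 35 genes fell in 3bKI against wt and none rose (limma, 8.70% of all genes passed in either direction). They were Slc27a2, Slc25a20, Acadvl, Acadl, Hadh, Acaa2, Decr1, Abcd3, Ehhadh, Hsd17b4, Acaa1a, Acaa1b, Eci2, Acad11 and Bdh1. The block values were -0.51 ± 0.08 for Acaa1a, -0.60 ± 0.13 for Acaa1b and -0.58 ± 0.13 for Eci2. Hadh, in contrast, shrank to -0.23 ± 0.07 (limma, adjusted p = 0.045).

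Cpt1a (-0.31 ± 0.12, adjusted p = 0.11), Decr2 (-0.39 ± 0.15, adjusted p = 0.11) and Abcd2 (-0.84 ± 0.50, adjusted p = 0.35) no longer passed with the block, nor did Acads (0.11 ± 0.11), Crot (0.35 ± 0.19), Pex11a, Fabp1, Hadhb, Etfa and Etfb. The median of the peroxisomal genes was -0.39 and that of the mitochondrial genes -0.14 in that fit. Fitted within the higher level alone, with 2 wt arrays, none of the 35 passed in 3bKI against wt (0.731% of all genes did). The fit has few arrays. Its changes are those of the block fit by design, because in both fits the same 2 wt arrays stand for wt, so it is no second support. They were -0.51 for Acaa1a (limma, adjusted p = 0.066) and -0.58 for Eci2 (adjusted p = 0.14), with a median of -0.23 over the 35. Against 3aKO the block left 8 genes, all lower (6.77% of all genes). With the RNA integrity measure as a covariate, 9 genes fell in 3bKI against wt (3.33% of all genes) and 1 against 3aKO (0.638%). The 9 were Acadl, Acaa2, Decr1, Abcd2, Abcd3, Acaa1a, Decr2, Eci2 and Acad11. Of the genes that passed with the block, Slc27a2, Slc25a20, Acadvl, Hadh, Ehhadh, Hsd17b4, Acaa1b and Bdh1 did not pass with this covariate. The median change against wt was -0.30 in that fit, with -0.45 for Acaa1a and -0.70 for Eci2. The part of these control signals in the changes was not tested beyond these fits.

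In 1KI against wt the block left 1 of 13 calls, Acaa1a (-0.37 ± 0.11, adjusted p = 0.046), while 4.30% of all genes passed. Pex11a kept its size (0.58 ± 0.18) with an adjusted p of 0.060. Of the mitochondrial genes, Hadh changed to -0.02 ± 0.06, Etfb to -0.03, Etfa to -0.07 and Hadhb to -0.17, while Hadha (-0.24), Acaa2 (-0.21) and Etfdh (-0.34) kept their size. Decr2 changed to -0.22 ± 0.13 and Abcd2 to -0.47 ± 0.43. Within the level none passed (0.956% of all genes). The change of -0.37 for Acaa1a there (limma, adjusted p = 0.25) is that of the block fit by design. Against 3aKO the block left none (2.29%).

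**Figure D4:**
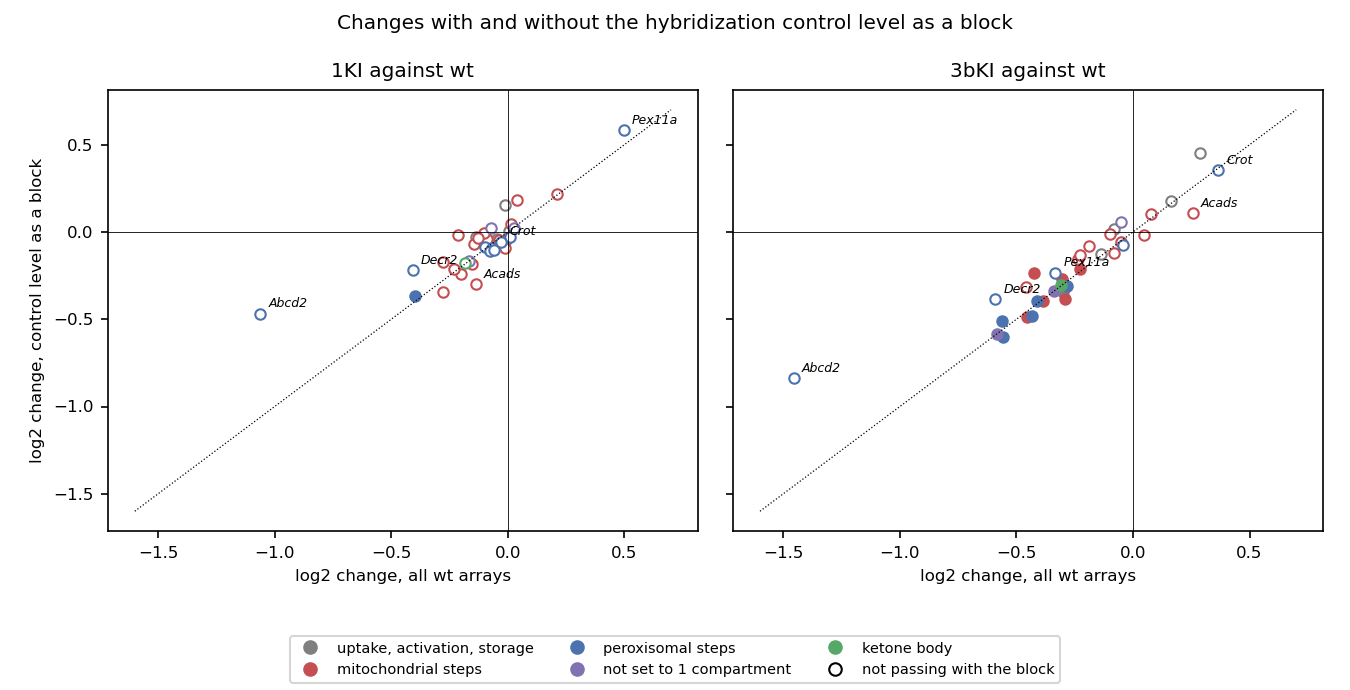
Log2 change of each gene against wt with all wt arrays (x axis) and with a block for the hybridization control level (y axis), in 1KI and 3bKI, with open points for an adjusted p of 0.05 or more in the block fit. Points near the dotted line kept their size, 15 points are filled in 3bKI and 1 in 1KI, and Abcd2 lies above the line in both.

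Of the 31 other probe sets of these genes, 22 belong to genes called in 3bKI against wt and 19 of them had the sign of the brighter probe set. All 4 Abcd2 probe sets fell in both knock-ins, by between 0.61 and 1.57 on the log2 scale in 3bKI and between 0.38 and 1.06 in 1KI. The dimmer Cpt1a probe sets fell further in 3bKI, by 1.10 and 1.20. Acaa2 had a probe set of the _s_at kind, shared between transcripts, that rose by 0.88 ± 0.05 in 1KI and 0.37 ± 0.12 in 3bKI while the brighter fell by 0.23 in each. A dim Hadhb probe set likewise rose by 0.79 and 0.47, and a dim Abcd3 probe set by 0.90 in 1KI. In 1KI the dimmer Pex11a probe set rose by 0.57 ± 0.13, and in 3bKI it had a change of -0.13 ± 0.14 that did not pass. With probe sets averaged per gene, Acadl, Acaa2 and Pex11a did not pass in 3bKI against wt, nor Etfdh in 1KI against wt. In that fit of 3bKI against wt, Scp2 passed as lower (-0.31, adjusted p = 0.018, limma) and Cd36 as higher (0.34, adjusted p = 0.046).

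Other genes of the pathway gave the surroundings. Of 19 measured inducible PPAR alpha targets, 2 rose and 10 fell in 3bKI against wt, or 10.5% and 52.6%, beside 13.4% and 15.9% of all genes. Cyp4a14, a microsomal fatty acid omega-hydroxylase, fell by 2.80 ± 0.51 and Vnn1, a pantetheinase, by 1.81 ± 0.26 (adjusted p = 8.8e-05 and 3.6e-06, limma). Fitm2, which acts in lipid droplet formation, fell by 0.68 ± 0.09, and the acyl-CoA thioesterase gene Acot1 by 1.18 ± 0.28. In 1KI 4 of the 19 rose and 1 fell, or 21.1% and 5.26%, beside 10.2% and 17.5% of all genes. Slc25a42, a mitochondrial carrier of coenzyme A, rose by 0.64 ± 0.09, and Plin4, Angptl4 and Plin5 by 0.75, 0.56 and 0.47. Against 3aKO, 6 rose in 1KI and none fell, beside 11.9% and 19.0% of all genes, and 2 rose and 5 fell in 3bKI, beside 16.5% and 17.7%. None passed in 3aKO against wt (limma, 1 at an unadjusted p under 0.05), beside 0.110% and 0.0660% of all genes.

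Of 22 other mitochondrial fatty acid genes, 4 rose and 9 fell in 3bKI, or 18.2% and 40.9%, beside 13.4% and 15.9% of all genes. They were led by Acad9 (-1.10 ± 0.08), a dehydrogenase that also assembles complex I, and Nnt (-0.40 ± 0.06), the transhydrogenase. Acad10 and the malonyl-CoA decarboxylase gene Mlycd rose there by 0.57 and 0.40. In 1KI 1 rose and 9 fell, or 4.55% and 40.9%, beside 10.2% and 17.5% of all genes, with falls of 0.25 and 0.21 for Acadsb and Pcca. Of 28 other peroxisomal genes, 5 rose and 4 fell in 3bKI, or 17.9% and 14.3%, near the 13.4% and 15.9% of all genes, with a median change of -0.02. Acot3 fell by 2.58 ± 0.37 and Acot4 by 0.87 ± 0.19, both peroxisomal thioesterases, while the import factor gene Pex6 rose by 0.59 ± 0.09. In 1KI 2 of the 28 rose and 7 fell, or 7.14% and 25.0%, beside 10.2% and 17.5% of all genes, and Pex6 again rose, by 0.42 ± 0.07.

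Of 6 measured genes of ketogenesis and ketone use, 1 rose and 1 fell in each knock-in against wt, or 16.7% each way, beside 10.2% and 17.5% of all genes in 1KI and 13.4% and 15.9% in 3bKI. Slc16a6, a transporter of ketone bodies, rose by 0.48 ± 0.10 in 1KI and by 0.65 ± 0.17 in 3bKI. Bdh2 fell by 0.54 in 1KI and Oxct1, the enzyme of ketone use, by 0.40 in 3bKI. Of 21 regulators, 7 rose and 1 fell in 1KI, or 33.3% and 4.76%, beside 10.2% and 17.5% of all genes. In 3bKI 3 rose and 6 fell, or 14.3% and 28.6%, beside 13.4% and 15.9%. Ppard rose by 0.45 ± 0.07 in 1KI and by 1.20 ± 0.25 in 3bKI, while in 3bKI the coactivator gene Ncoa2 fell by 0.72, Sirt1 by 0.58 and Med1 by 0.23. Lpin1, a phosphatidate phosphatase and coregulator, rose by 1.29 ± 0.24 in 1KI. In 3aKO against wt, Ppargc1a was the only gene of these 5 lists that passed, with a rise of 1.12 ± 0.16 (adjusted p = 3.0e-04, limma).

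Genes that mark other liver cells were read beside these results. For the counts against wt, the shares of all genes called higher and lower were 10.2% and 17.5% in 1KI. In 3bKI they were 13.4% and 15.9%. Hepatocyte markers gave 2 higher and 0 lower of 9 in 1KI against wt, and 1 higher (Ass1) and 1 lower (Pck1) in 3bKI. Kupffer cell markers gave 0 and 0 of 8 in 1KI (3 at an unadjusted p under 0.05) and 1 higher in 3bKI, and stellate cell markers 1 higher and 3 lower of 6 in 3bKI, with array means from 9.55 to 9.65 there and from 9.55 to 10.1 in wt. Adipocyte markers, which matter for Cd36 and Plin2, had array means between 4.55 and 5.10 in every group, below the median gene signal. Skeletal muscle markers reached an array mean of 8.78 in 1KI, beside at most 6.49 in wt, with none of 5 called and none at an unadjusted p under 0.05. Sinusoidal endothelial markers gave 1 higher of 7 in 3bKI against wt. Set against 3aKO, Kupffer cell markers gave 0 higher and 4 lower of 8 in 1KI, beside 11.9% and 19.0% of all genes. In 3bKI against 3aKO, Kupffer cell markers gave 0 higher and 1 lower. Endothelial markers gave 4 higher and 0 lower of 7 there, beside 16.5% and 17.7% of all genes. The part of other cells in the changes of the 35 genes was not tested.

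Within a group the spread of the 35 genes lay near that of other bright genes. The median SD was 0.11 in wt, beside 0.14 over all genes above the median signal, and 0.18 in 1KI, beside 0.19. In 3bKI it was 0.14, beside 0.17. Fabp1 had the smallest SD in wt (0.05) and Acaa2 in 3aKO (0.04) and 3bKI (0.02), while Abcd2 had the largest in each group. Single arrays carried many genes at once. Wt replicate 3 was the highest wt array for 13 of the 35, 3aKO replicate 8 the lowest of its group for 21, and 3bKI replicate 3 the lowest of its group for 17.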

How the data were processed

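Liver RNA was measured on Affymetrix mouse arrays. The authors deposited normalized log2 values in tables of 59 columns for 37 arrays, of which 22 appear in both normalizations. The log2 scale was read from the deposited values (2.13 to 15.06), while no source used here gives the normalization method. Of 45101 probe sets, 34945 carry 1 symbol, 932 several and 9160 none, and 64 are controls. The probe set with the highest mean was kept for each of 18193 genes. Each normalization was fitted over all its arrays with limma 3.58.1 in R 4.3.3 (lmFit, eBayes), with Benjamini-Hochberg adjustment over all genes at 0.05. The number of arrays limits the precision. The fit was tested on simulated data.

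The genes and lists were chosen with earlier results of these data known. Every member is named, with array values for those that passed with a change of at least 0.5 and some others, and up to 4 called genes with the smallest p from each other list. The split of arrays by Xist and Y-linked signal, at the midpoint of the range of their difference, and the means without Abcd2 were chosen after the data were seen. The control level was tried as a block, alone and with a sex index, and as a restriction, and the closing section gives the effect of the other alternatives. Promoters came from RefSeq. Some genes of these pathways are not reported here.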

Additional observations from a re-analysis of the deposited data

Results flagged for a closer look

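Of 105 groups of values tested for a single array far from the others, 11 were set apart, and chance alone sets apart about 1 in 20. In 1KI, replicate 6 was the lowest array by such a gap for Acads (10.18), Hadha (11.01), Hadhb (11.31), Acaa2 (12.72), Etfa (12.52), Etfdh (10.51), Abcd2 (6.21) and Acad11 (11.44). The same array had the largest 3′ minus 5′ difference (1.75), and the part of RNA integrity in these values was not tested. In 1KI, replicate 1 was the lowest for Pex11a (10.43) and Eci2 (11.46). In 3bKI, replicate 5 was the lowest for Bdh1 (12.51).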

How the results depend on the processing

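A block for the hybridization control level left 15 calls in 3bKI against wt, 8 against 3aKO, and for 1KI 1 against wt and 0 against 3aKO. With the block and a sex index these were 13, 9, 1 and 0, and the 1 call of 1KI was then a higher gene. Within the level both knock-ins had 0 calls against wt. With RNA integrity as a covariate 3bKI had 9 calls against wt and 1 against 3aKO. In 3aKO against wt 1 gene, Cd36, was called with the compared groups alone, with array weights, within the level and in normalization 2. The median of the 35 genes became -0.17 in 3bKI against 3aKO (block) and -0.21 in 3bKI against wt (block and sex index). The mitochondrial median became -0.14 in 3bKI against 3aKO (block), and in 3bKI against wt -0.145 (block, and within the level), -0.18 (block and sex index), -0.16 (probe sets averaged per gene) and -0.30 (RNA integrity). The cause was not tested. With probe sets averaged per gene, Acaa2 turned to 0.18 in 1KI against 3aKO, 0.0902 in 1KI against wt and, for 3bKI against 3aKO, 0.089. Hadhb turned to 0.0803 in 1KI against wt, since probe sets of opposite sign enter that mean. Leaving out 1 array at a time gave 0 calls for 3aKO, 13 to 15 for 1KI (wt) and 11 to 13 (3aKO), and 23 to 26 for 3bKI (wt) and 21 to 23 (3aKO). Not every same-numbered pair deviated together (lowest and highest correlation -0.33 and 0.34 between 3aKO and wt), so the numbers were not taken to pair arrays, and a replicate block gave 0, 13, 12, 21 and 22 calls in the same order. Direct repeats were found in 5 genes with 2 mismatches and in 1 with 1 mismatch. The peroxisomal mean of 3bKI changed from -0.43 to -0.32 without Abcd2, an alternative chosen after the data were seen.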
